A study of Mus musculus with 34 samples.

Results

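Immunoglobulin variable (V) segments were examined in visceral white fat, in its stromal vascular fraction (SVF), from mice on a high fat diet or a control diet. The segments were all genes listed in both expression tables whose symbol starts with Ighv, Igkv or Iglv and a digit, and they numbered 217 of 32098 genes. There were 115 heavy chain segments (Ighv, chromosome 12, 113578504 to 116000461), 100 kappa light chain segments (Igkv, chromosome 6, 67555497 to 70704177) and 2 lambda segments (Iglv, chromosome 16, 19085017 to 19260859), in GRCm38 coordinates. All mice were C57BL/6J males that carried no genetic change and began their diet at 6 weeks of age. HFD mice received a diet with 60% of its energy as fat (D12492) and CHOW mice received the control diet D12450B or D12450K, and the labels do not say which of these a given mouse had. The groups were 4 CHOW and 6 HFD libraries after 8 weeks (14 weeks of age), 5 CHOW and 6 HFD libraries after 20 weeks (26 weeks of age), and 7 CHOW and 6 HFD libraries after 34 weeks (40 weeks of age). The SVF is the cell pellet left when fat is digested with collagenase and the floating adipocytes are removed, and it holds immune cells, progenitors, endothelial cells and mesothelial cells. The labels number the libraries as replicates without naming animals, so p-values measure the spread between these libraries.

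A B cell builds its antibody genes by joining a heavy chain V segment to a D and a J segment, and a light chain V segment to a J segment. Each B cell and its descendants therefore express mainly a single heavy and a single light V segment, and the mixture of V segments in a tissue mirrors the mixture of B cell and plasma cell families in it. Plasma cells hold far more antibody mRNA than resting B cells. B-1 cells are a B cell type of the peritoneal and pleural cavities that makes natural IgM from a narrow set of segments, and the joining of Ighv11-2 with Igkv14-126, or of Ighv12-3 with Igkv4-91, is the textbook case, since both pairs bind phosphatidylcholine. Visceral fat lies in the peritoneal cavity and holds clusters of lymphoid cells in which B-1 cells are found.

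Expression is given in TPM, a length-corrected share of the transcripts of a library that sums to 1000000 in each library. TPM keeps no read depth, so the depth behind each value is unknown and no counting interval is given. The libraries for 8 and 20 weeks came in 1 table (21 libraries) and those for 34 weeks in another (13 libraries), and levels set side by side across the 2 tables were not tested. Between 13200 and 17213 genes reached 1 TPM in a library. Macrophage genes (5126 to 20423 TPM summed over 8 genes) and progenitor genes (2300 to 7617 TPM over 5 genes) marked the SVF in every library. HFD replicate 3 at 8 weeks stood apart with 123060 TPM of seminal vesicle genes, HFD replicates 3, 4 and 5 at 20 weeks with 2480, 3225 and 13479 TPM of germ cell genes, HFD replicates 1 and 2 at 34 weeks with 5468 and 5861 TPM of the same genes, and CHOW replicates 5, 6 and 7 at 34 weeks with 10837, 50042 and 15209 TPM of adipocyte genes. Hemoglobin genes took 7082 to 267366 TPM.

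V segments of a family differ at few bases, which limits how reads can be divided among them. By edit distance, the coding sequences of the 217 segments had a median of 94.6% identity to their closest fellow member, 99 segments had another at 95% or more, and in the median segment 57.4% of the 31-base words occurred in no other segment. The sequences below are the last 150 bases of the V exon of the segments on which the results turn, read 5′ to 3′ on the coding strand from the GENCODE M21 transcripts (GRCm38). Capitals mark the bases that differ from the segment named in parentheses in an alignment of the V exons.
Ighv11-2 (against Ighv11-1, 2 bases differ; chr12:114048241-114048390, minus strand): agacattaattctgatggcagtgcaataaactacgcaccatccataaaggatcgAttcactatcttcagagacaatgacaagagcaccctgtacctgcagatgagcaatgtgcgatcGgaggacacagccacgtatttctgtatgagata
Igkv14-126 (against Igkv14-111, 20 bases differ; chr6:67896493-67896642, plus strand): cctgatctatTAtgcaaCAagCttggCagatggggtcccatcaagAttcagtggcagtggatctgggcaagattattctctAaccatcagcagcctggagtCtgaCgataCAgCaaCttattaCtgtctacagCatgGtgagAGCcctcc
Igkv3-2 (against Igkv3-1, 9 bases differ; chr6:70698918-70699067, plus strand): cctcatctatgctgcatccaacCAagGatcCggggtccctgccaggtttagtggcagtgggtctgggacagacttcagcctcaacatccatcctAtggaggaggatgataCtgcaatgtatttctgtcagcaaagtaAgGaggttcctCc
Ighv9-3 (against Ighv9-2, 3 bases differ; chr12:114140692-114140841, minus strand): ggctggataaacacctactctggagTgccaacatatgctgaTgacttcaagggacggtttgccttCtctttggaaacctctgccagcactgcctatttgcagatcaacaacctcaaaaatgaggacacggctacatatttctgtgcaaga
Igkv4-55 (against Igkv4-68, 7 bases differ; chr6:69607275-69607424, minus strand): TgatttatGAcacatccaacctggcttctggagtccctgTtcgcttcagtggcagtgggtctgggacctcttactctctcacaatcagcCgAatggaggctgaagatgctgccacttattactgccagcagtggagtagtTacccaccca
Igkv4-68 (against Igkv4-55, 7 bases differ; chr6:69304834-69304983, minus strand): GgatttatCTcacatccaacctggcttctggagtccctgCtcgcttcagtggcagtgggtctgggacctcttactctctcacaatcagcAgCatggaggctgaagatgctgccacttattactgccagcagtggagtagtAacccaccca
Ighv1-19 (against Ighv1-26, 6 bases differ; chr12:114708648-114708797, minus strand): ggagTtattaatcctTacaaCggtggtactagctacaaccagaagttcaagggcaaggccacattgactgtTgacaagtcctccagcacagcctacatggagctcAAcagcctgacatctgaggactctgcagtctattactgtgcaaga
Igkv5-43 (against Igkv5-45, 0 bases differ in this stretch; chr6:69823355-69823504, minus strand): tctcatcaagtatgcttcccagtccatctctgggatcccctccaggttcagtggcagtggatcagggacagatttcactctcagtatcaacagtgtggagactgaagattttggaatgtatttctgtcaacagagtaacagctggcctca
Igkv14-126 shared few long words with any other segment (94.1% of its 31-base words were its own), whereas 32.5% of those of Ighv11-2 and 19.3% of those of Igkv4-55 were their own. Igkv5-43 and Igkv5-45 cannot be told apart by a read that lies within the stretch shown.

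V segment transcripts were found in all 34 libraries, and few segments carried most of them. Of the 217 segments, 205 reached 1 TPM in some library, 25 did so in every library, and 11 (9 Ighv and 2 Igkv) were listed at 0 throughout. The 10 most abundant segments held 47.8% of the summed V segment TPM when the 6 groups were weighted equally. Igkv14-126 ranked first and was the most abundant V segment in 25 of 34 libraries, and Ighv11-2 was the leading heavy chain segment in 22. Kappa segments supplied a mean of 56.1% to 64.7% of V segment TPM in the 6 groups and heavy chain segments 31.9% to 38.7%.

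Summed V segment TPM was higher in CHOW libraries at 20 than at 8 weeks without overlap, and the spread between libraries was narrowest in CHOW libraries at 8 weeks. At 8 weeks the 4 CHOW libraries held 2597, 2459, 2266 and 1971 TPM. The 6 HFD libraries of that time ranged from 1313 to 5412 TPM with a median of 2074, so they lay on both sides of the CHOW values. At 20 weeks the 5 CHOW libraries held 4463, 4289, 8609, 23017 and 10772 TPM, all above the highest CHOW library at 8 weeks. The 6 HFD libraries at 20 weeks ranged from 1882 to 24801 TPM with a median of 3408, and all but 2 of them lay within 1882 to 4453 TPM. At 34 weeks the CHOW libraries ranged from 1396 to 5960 TPM with a median of 3438, and the HFD libraries from 1610 to 15428 TPM with a median of 4574. These ranges overlapped.

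**Figure D1:**
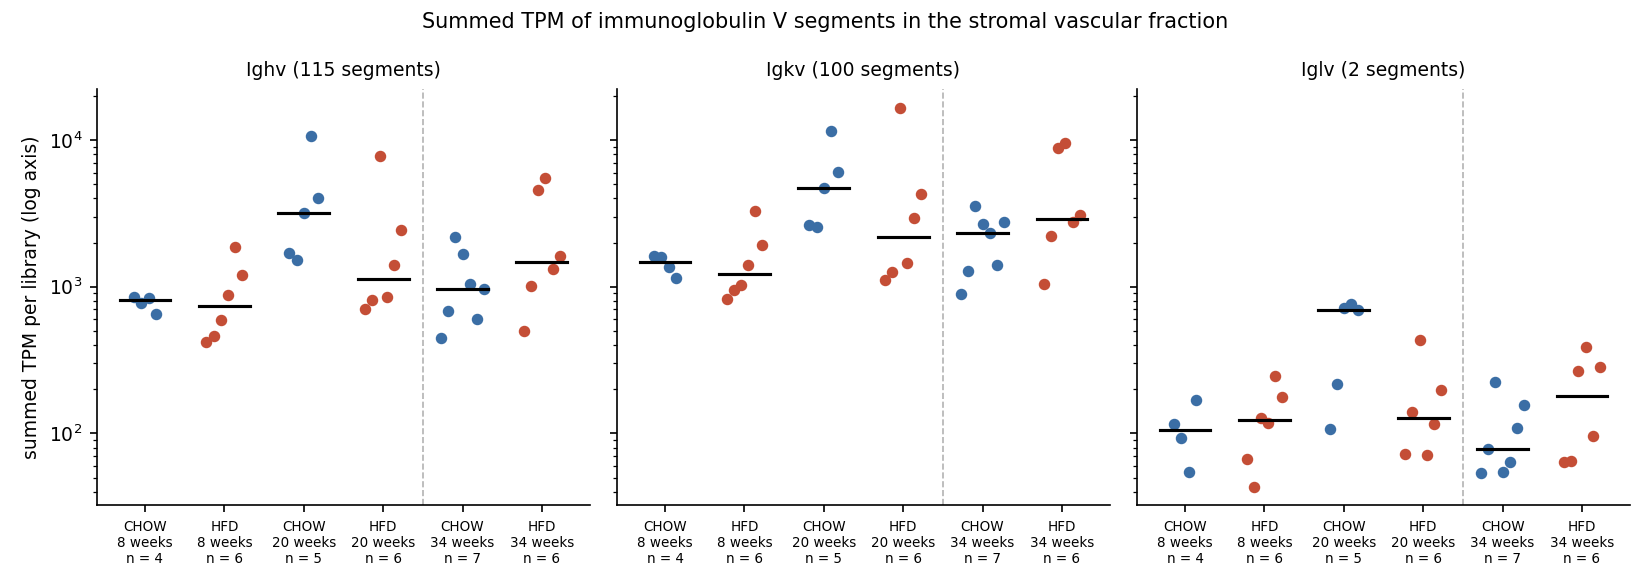
Summed TPM of the Ighv, Igkv and Iglv segments in each library on a log axis, by diet and weeks on diet. Each point is a library, the black bar is the group median, and the dashed line separates the 2 tables. The 5 CHOW libraries at 20 weeks sit above the 4 CHOW libraries at 8 weeks in the Ighv and Igkv panels, and the HFD groups spread widely.

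The mean of the CHOW libraries was 2323 ± 271 TPM (SD, n = 4) at 8 weeks and 10230 ± 7665 TPM (SD, n = 5) at 20 weeks, a ratio of 4.40, and CHOW replicate 4 alone moved this ratio to 3.03 when left out. HFD libraries averaged 7107 ± 8875 TPM (SD, n = 6) at 20 weeks, which is 0.695 of the CHOW mean. That ratio fell to 0.349 without HFD replicate 3 and was 1.01 without CHOW replicate 4. Its size thus depended on single libraries, and the means were nearly equal without CHOW replicate 4. At 34 weeks the HFD mean of 7178 ± 5817 TPM (SD, n = 6) was 2.16 times the CHOW mean of 3320 ± 1597 TPM (SD, n = 7). No p-value is given for these sums because the segments were chosen with earlier results known. In RNA from a whole tissue fraction, fewer cells of a type and less RNA per cell cannot be told apart.

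The constant region genes, which every antibody mRNA carries behind its V segment, moved with the V segments. The ratio of summed V segment TPM to the TPM of 12 constant genes ranged over the 34 libraries from 0.826 to 1.51 while the V segment sum itself ranged from 1313 to 24801 TPM. Ighm, the constant gene of IgM, and Igkc, that of kappa chains, led this list in all 6 groups. CHOW replicate 4 at 20 weeks held 5881 TPM of Ighm and 8445 TPM of Igkc, and HFD replicate 3 at 20 weeks held 6269 and 9869 TPM. Those 2 libraries also had the highest levels of Jchain, which joins IgM and IgA into polymers, at 588 and 516 TPM, and of Mzb1, a chaperone of antibody-secreting cells, at 174 and 65.2 TPM.

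Defining B cell genes stayed at far lower levels. Cd79a, a subunit of the B cell receptor, ranged from 7.33 to 36.9 TPM, and Ms4a1, which encodes CD20, from 0.746 to 8.89 TPM. Neither had its lowest or highest value in HFD replicate 3 at 20 weeks (13.7 and 2.36 TPM), the library with the most V segment TPM. Summed over the 12 genes of the B cell list, CHOW replicate 4 at 20 weeks held 143 TPM and HFD replicate 5 at 8 weeks 101 TPM. Each was the highest of its group in that sum and in V segment TPM. In the other groups different libraries led the 2 sums. On HFD at 20 weeks the B cell sum was highest in replicate 2 (160 TPM), and replicate 3 held 63.9 TPM. At 34 weeks it was highest in CHOW replicate 1 (78.6 TPM) and HFD replicate 1 (125 TPM). Those libraries had the lowest V segment TPM of their groups (1396 and 1610). At 20 weeks, 3 of 11 tested constant genes were lower on HFD, where 4.99% of all genes were. These were Ighg2b (log2 difference -3.12, SE 0.90, adjusted p = 0.0263), Iglc1 (-1.83, SE 0.55, adjusted p = 0.0323) and Iglc3 (-1.63, SE 0.54, adjusted p = 0.0465). From 8 to 20 weeks on CHOW, Ighg2b (4.59, SE 0.99, adjusted p = 0.0405) and Iglc1 (2.97, SE 0.61, adjusted p = 0.0300) rose, 2 of 11 where 0.458% of all genes did. Of the tested B cell genes, 1 of 12 was called higher and 1 lower on HFD at 20 weeks, and of the plasma cell genes 2 of 13 higher and 2 lower, beside 9.32% of all genes called higher and 4.99% lower. At 34 weeks no constant gene passed the limma test, with 2 of 11 at an unadjusted p under 0.05, and Cd79a, the only B cell gene of 11 to pass, was higher on HFD (0.89, SE 0.16, adjusted p = 0.0461). A further 7 of those 11 B cell genes were higher at an unadjusted p under 0.05, making 8 where 9.69% of all genes were, and their median log2 difference was 0.64. The B cell sum was 43.5 to 78.6 TPM in the CHOW libraries and 68.6 to 125 TPM in the HFD libraries at 34 weeks, with overlap.

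Igkv14-126 was the most abundant kappa segment in 25 of 34 libraries and Ighv11-2 the most abundant heavy chain segment in 22. These segments are called the pair below because they are joined in known B-1 antibodies. TPM is listed per segment, so whether the same cells expressed both, and whether these were B-1 cells, was not tested. The level of the pair differed widely between HFD libraries at 20 weeks. At 8 weeks the diets overlapped. In the 4 CHOW libraries at 8 weeks Igkv14-126 stood at 610, 602, 544 and 261 TPM and Ighv11-2 at 188, 204, 190 and 59.9 TPM. CHOW replicate 4 was the low library for both. In HFD libraries at 8 weeks Igkv14-126 ranged from 256 to 1135 TPM with a median of 381, and Ighv11-2 from 91.5 to 411 TPM with a median of 142. The pair made up 28.0% ± 7.9 (SD, n = 4) of V segment TPM on CHOW and 28.0% ± 5.7 (SD, n = 6) on HFD at this time.

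At 20 weeks the pair spread apart among HFD libraries. Igkv14-126 reached 975, 837, 1224, 689 and 973 TPM and Ighv11-2 reached 384, 266, 469, 241 and 423 TPM in the 5 CHOW libraries, a narrow range. The 6 HFD libraries ran from 273 to 13166 TPM of Igkv14-126 (median 1052) and from 84.7 to 5683 TPM of Ighv11-2 (median 392). HFD replicates 3, 5 and 6 were the high libraries, in which the pair took 76.0%, 52.6% and 60.8% of all V segment TPM, against 16.1% to 23.02% in the other 3. In CHOW libraries at 20 weeks the pair took 4.04% to 30.5%. The difference between diets was not past the test for either segment at 20 weeks, at a log2 difference of 0.30 (SE 0.72, adjusted p = 0.816) for Igkv14-126 and 0.29 (SE 0.80, adjusted p = 0.842) for Ighv11-2. Without the pair, the 5 CHOW libraries at 20 weeks averaged 8934 ± 7815 TPM (SD, n = 5) of V segments and the HFD libraries 2655 ± 1666 TPM (SD, n = 6). The CHOW mean was 5646 TPM without replicate 4, and the HFD mean 1996 TPM without replicate 3.

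**Figure D2:**
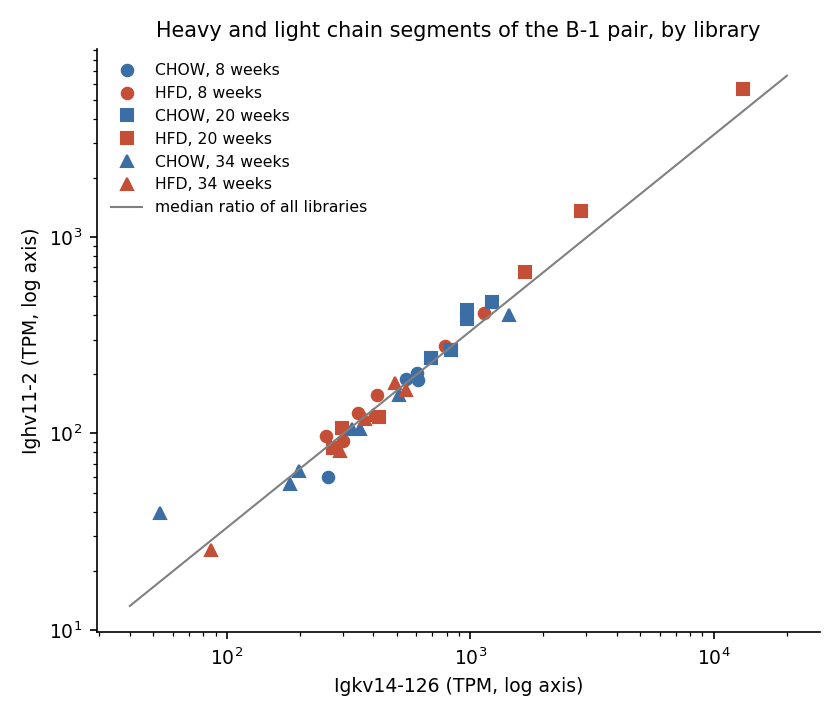
Ighv11-2 against Igkv14-126 in each of the 34 libraries, both in TPM on log axes, with diet shown by color and time by symbol. The line is the median ratio of 0.331. The points lie along the line over the whole range, and 1 CHOW library at 34 weeks lies above it at 0.743.

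The heavy and light segments of this pair kept nearly the same ratio whatever their level. Ighv11-2 was 0.230 to 0.743 of Igkv14-126, and 33 of 34 libraries fell between 0.2 and 0.5, with a median of 0.331. The exception was CHOW replicate 4 at 34 weeks, where both were low (39.4 and 53.1 TPM). The segments lie on different chromosomes and differ in sequence, so reads are not divided between them.

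At 34 weeks the pair was at its lowest share on HFD. Igkv14-126 ranged from 53.1 to 1445 TPM on CHOW (median 326) and from 85.8 to 543 TPM on HFD (median 384), and the diets overlapped. Its log2 difference was 0.13 (SE 0.62, adjusted p = 0.936). The pair made up 20.3% ± 16.7 (SD, n = 7) of V segment TPM on CHOW, with 47.4% in replicate 7 and 2.10% in replicate 4, and 9.21% ± 5.81 (SD, n = 6) on HFD. CHOW replicates 5, 6 and 7, the libraries rich in adipocyte RNA, had shares of 13.3%, 31.7% and 47.4%. Without these 3 the CHOW share was 12.5% ± 13.2 (SD, n = 4), and the part of adipocyte RNA in it was not tested.

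The other segments known from B-1 antibodies did not keep such a steady ratio in all groups. Igkv4-91, the light chain partner of Ighv12-3, was at 192, 25.7, 80.2 and 103 TPM in CHOW libraries at 8 weeks and at 81.9, 118, 32.8, 368 and 490 TPM at 20 weeks, with overlap. Ighv12-3 was at 82.2, 9.58, 56.2 and 65.2 TPM at 8 weeks and at 38.7, 125, 36.2, 21.7 and 96.6 TPM at 20 weeks on CHOW. Both segments ranked the CHOW libraries at 8 weeks in the same order. At 20 weeks CHOW replicate 4 held 368 TPM of Igkv4-91 but the lowest CHOW value of Ighv12-3. In HFD replicate 3 at 20 weeks Igkv4-91 stood at 388 TPM and Ighv12-3 at 272 TPM, both the highest HFD values of that time. Ighv7-1 and Igkv7-33 encode antibodies to phosphorylcholine. Igkv7-33 was listed at 0 in 19 of 34 libraries and its highest value was 47.6 TPM, while Ighv7-1 is described with the 20-week comparison.

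**Figure D3:**
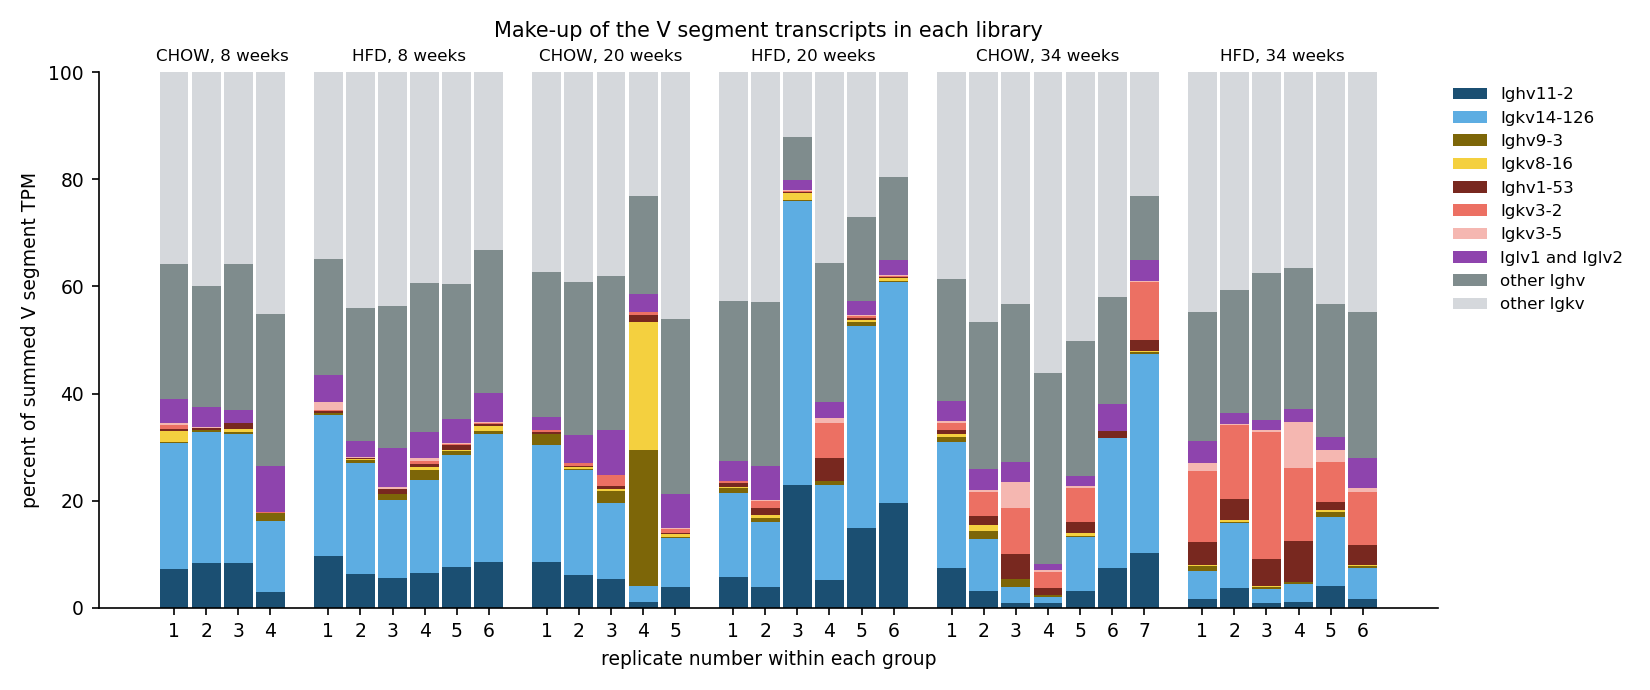
Share of each library's summed V segment TPM taken by 7 named segments, by the 2 Iglv segments and by all other Ighv and Igkv segments, as stacked bars that add to 100%, with replicate numbers below and groups above. The Ighv11-2 and Igkv14-126 blocks reach 76.0% in HFD replicate 3 at 20 weeks, Ighv9-3 and Igkv8-16 fill much of CHOW replicate 4 at 20 weeks, and Igkv3-2 and Ighv1-53 are prominent at 34 weeks on HFD.

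Some segments were abundant in a single library. By a rule set after the values were seen (at least 10 TPM, and at least 50% of the segment's TPM over the 34 libraries in 1 library), there were 33 such segments, of which CHOW replicates 3, 4 and 5 at 20 weeks held 5, 5 and 6. CHOW replicate 4 at 20 weeks was led by Ighv9-3 at 5857 TPM and Igkv8-16 at 5477 TPM. In no other library did Ighv9-3 exceed 185 TPM or Igkv8-16 exceed 292 TPM. CHOW replicate 5 at 20 weeks was led by Igkv6-32 at 1615 TPM, and held Ighv1-66 at 905 TPM, which is 90.1% of that segment's TPM over the 34 libraries. CHOW replicate 3 at 20 weeks held Igkv5-48 at 846 TPM and Ighv1-7 at 518 TPM. Igkv6-32, Ighv1-66, Igkv5-48 and Ighv1-7 were named after their values were seen. HFD replicate 4 at 34 weeks held 6 such segments, led by Igkv3-5 at 1310 TPM. The leading segments differed between these libraries.

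The evenness of the segments varied as much within groups as between them. The effective number of segments (the inverse of the summed squared shares, which counts how many equally abundant segments would give the same concentration) was 12.9, 11.9, 12.97 and 24.3 in CHOW libraries at 8 weeks. It was 14.96, 17.7, 20.6, 7.79 and 19.7 in CHOW libraries at 20 weeks, lowest in the library led by Ighv9-3. HFD libraries ranged from 11.5 to 25.8 (median 16.2) at 8 weeks and from 2.98 to 34.5 (median 13.4) at 20 weeks. The lowest value, 2.98, was that of HFD replicate 3, in which 10 segments held 84.7% of V segment TPM. At 34 weeks the CHOW range was 6.10 to 42.0 and the HFD range 14.5 to 33.5. The number of segments at 1 TPM or more was 106 ± 6 (SD, n = 4) on CHOW and 124 ± 18 (SD, n = 6) on HFD at 8 weeks, 134 ± 13 (SD, n = 5) and 139 ± 5 (SD, n = 6) at 20 weeks, and 120 ± 13 (SD, n = 7) and 144 ± 14 (SD, n = 6) at 34 weeks. A number at a fixed floor can rise with the V segment sum and with the unknown depth, so it does not measure evenness. On HFD at 34 weeks it was highest in replicates 3 and 4 (161 and 162), which also held the most V segment TPM (13591 and 15428). On HFD at 20 weeks it was highest in replicate 5 (147), which held 4453 TPM.

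At 34 weeks a different set of segments led the HFD libraries. Igkv3-2 was the most abundant segment in 5 of 6 HFD libraries and in 1 of 7 CHOW libraries. Its TPM ran from 212 to 3232 on HFD (median 475) and from 0 to 514 on CHOW (median 136), so the groups overlapped. The log2 difference of 3.21 (SE 1.25) had an unadjusted p of 0.0223 and an adjusted p of 0.306. Ighv1-53, the leading heavy segment in 4 of 6 HFD libraries, ran from 66.8 to 1202 TPM on HFD (median 153) and from 9.23 to 269 TPM on CHOW (median 55.0), with a log2 difference of 2.09 (SE 0.78, adjusted p = 0.290). Among kappa segments Igkv3-2 took 21.1% ± 8.6 (SD, n = 6) on HFD and 7.60% ± 5.76 (SD, n = 7) on CHOW at 34 weeks, and between 0% and 10.7% in the 21 libraries of 8 and 20 weeks.

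Shares of whole families were also higher. The 9 segments of the Igkv3 family took 27.6% ± 9.9 (SD, n = 6) of kappa V segment TPM on HFD at 34 weeks and 11.9% ± 8.2 (SD, n = 7) on CHOW, against group means of 1.22% to 5.69% at 8 and 20 weeks. Most of this was Igkv3-2, since the other 8 segments took 6.42% ± 5.28 (SD, n = 6) and 4.29% ± 4.24 (SD, n = 7). The 54 segments of Ighv1, the largest heavy chain family, took 64.2% ± 8.9 (SD, n = 6) of heavy V segment TPM on HFD and 45.7% ± 14.7 (SD, n = 7) on CHOW at 34 weeks, and group means of 31.9% to 38.0% before. Without Ighv1-53 these shares at 34 weeks were 50.9% ± 4.6 (SD, n = 6) and 39.8% ± 15.1 (SD, n = 7). Single segments also set the shares by position in the kappa locus. The 25 kappa segments nearest the J segments, Igkv3-2 among them, supplied 37.5% ± 9.9 (SD, n = 6) of kappa V segment TPM on HFD at 34 weeks and 23.5% ± 8.0 (SD, n = 7) on CHOW, but 16.4% ± 5.0 (SD, n = 6) and 15.9% ± 7.7 (SD, n = 7) without Igkv3-2. The 25 farthest kappa segments, Igkv14-126 among them, supplied 30.5% ± 4.5 (SD, n = 6) and 47.5% ± 14.9 (SD, n = 7), but 19.7% ± 3.5 (SD, n = 6) and 24.2% ± 7.9 (SD, n = 7) without Igkv14-126. These shares are descriptions without a test.

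The test for single segments compared groups on log2(TPM + 1), so that fold changes of segments with low values are understated. Of the 217 segments, 177 reached 1 TPM in enough libraries to be tested at 8 and 20 weeks and 147 at 34 weeks, and the remaining 40 and 70 were not tested. Ratios and log2 differences below are HFD over CHOW, or 20 over 8 weeks. The comparisons at 8 and 20 weeks share libraries with each other, so their results are not independent. The segments of a library are measured together and make up its V segment sum. Counts of segments that went the same way are therefore not independent observations.

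**Figure D4:**
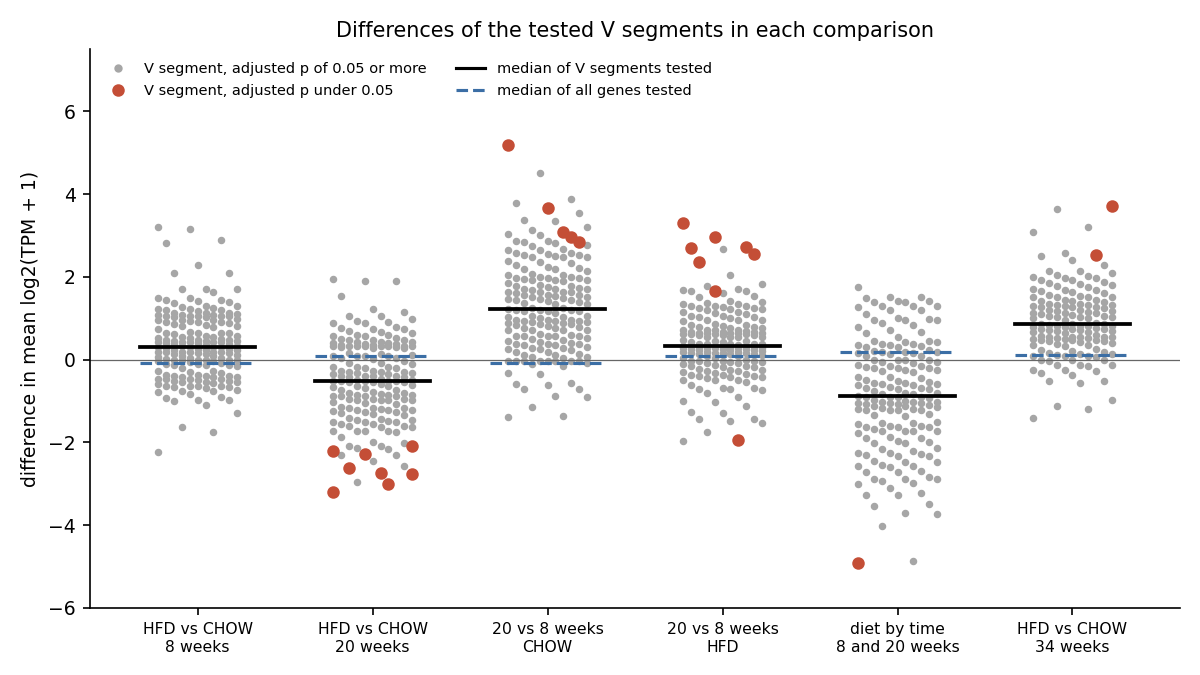
Difference in mean log2(TPM + 1) of every tested V segment (points) in 6 comparisons, with segments past the test in red, the median of the V segments as a black bar and the median of all genes as a dashed bar. The V segment median lies above that of all genes for 20 against 8 weeks on CHOW (1.22) and for HFD at 34 weeks (0.86), and below it for HFD at 20 weeks (-0.51).

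At 8 weeks no V segment differed between the diets by limma at an adjusted p under 0.05, while 0.0238% of all genes did in either direction. At an unadjusted p under 0.05, 8 of the 177 were higher and 2 lower on HFD, where 2.09% of all genes were higher. The median log2 difference of the segments was 0.30 and that of all genes -0.08.

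At 20 weeks 8 V segments fell below CHOW on HFD and none rose above it. That is 8 of 177, beside 4.99% of all genes called lower, so the share was near the background. At an unadjusted p under 0.05 there were 22 lower (10.2% of all genes) and 4 higher segments. The median was -0.51 for the segments and 0.08 for all genes. Ighv2-5 was at 2.00, 6.24, 7.83, 26.6 and 22.7 TPM in the 5 CHOW libraries and between 0 and 1.66 TPM in the 6 HFD libraries (median 0.583), and the groups did not overlap. Its log2 difference was -2.74 (SE 0.58, adjusted p = 0.0042). Ighv1-11 was at 3.40, 4.84, 27.4, 2.74 and 34.2 TPM on CHOW and was listed at 0 in 5 of 6 HFD libraries and at 2.45 TPM in the other, again without overlap (log2 difference -3.01, SE 0.86, adjusted p = 0.0250).

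The largest fall was that of Igkv4-57-1, at 32.0, 127, 51.7, 4.91 and 52.2 TPM on CHOW and 1.25 to 6.61 TPM on HFD (median 2.58), with a log2 difference of -3.20 (SE 0.78, adjusted p = 0.0101). CHOW replicate 4 lay within the HFD range. Ighv1-34 was at 7.58, 2.31, 91.6, 4.93 and 20.6 TPM on CHOW and between 0 and 4.52 TPM on HFD (median 0.591), with overlap and a log2 difference of -2.76 (SE 0.63, adjusted p = 0.0070). Ighv7-1, a segment of antibodies to phosphorylcholine, was at 22.4, 6.84, 66.5, 69.5 and 96.7 TPM on CHOW and at 1.08 to 36.3 TPM on HFD (median 3.12). HFD replicates 1 and 3 lay above the lowest CHOW library, and the log2 difference was -2.63 (SE 0.77, adjusted p = 0.0285). The other 3 called lower were Igkv5-43, Ighv14-2 and Igkv4-68, with log2 differences of -2.29, -2.21 and -2.09. Of their closest relatives in sequence that were tested, none was called. Ighv7-3, at 89.0% identity to Ighv7-1, had a log2 difference of -2.31 (adjusted p = 0.0856), nearly that of Ighv7-1. Igkv5-45, at 98.6% identity to Igkv5-43, had a log2 difference of 1.53 (adjusted p = 0.430), and its highest value, 320 TPM, was in HFD replicate 3. Leaving out CHOW replicate 3 reduced the calls at 20 weeks to 5, and leaving out CHOW replicate 5 reduced them to 3. They were also 5 without both libraries in which a pair of segments dominated (CHOW replicate 4 and HFD replicate 3), and 2 without HFD replicates 3, 4 and 5, the libraries rich in germ cell RNA.

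Markers of other cell types differed between the diets at 20 weeks too. Of the lymph node stroma list (Ccl21a, Ccl19, Cxcl13, Glycam1 and Madcam1), 3 were tested. Ccl19 and Cxcl13, chemokines of lymphoid tissue, were lower on HFD (log2 differences -1.41 and -2.86, adjusted p = 0.0107 and 0.0174), while Ccl21a had a difference of 1.28 (adjusted p = 0.0991). The summed level of the list was 23.6 to 263 TPM on CHOW, highest in replicate 2, and 12.2 to 20.7 TPM on HFD, without overlap. Without CHOW replicate 2, 9 V segments were called. All 4 mesothelial genes were lower on HFD (140 to 490 TPM summed on CHOW and 49.6 to 158 on HFD), as were all 4 hemoglobin genes (27289 to 129729 and 12596 to 30381 TPM) and 5 of 6 adipocyte genes (309 to 782 and 91.5 to 188 TPM), the remaining one being higher. Of the macrophage genes 5 of 8 were higher on HFD (5232 to 12518 and 9418 to 16718 TPM), and of the germ cell genes 2 of 10 (0.337 to 274 and 27.2 to 13479 TPM). The part of these other markers in the V segment differences was not tested.

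From 8 to 20 weeks on CHOW 5 V segments rose and none fell, of 177, where 0.458% of all genes were called higher. Most segments went the same way, with 154 above 0 and 23 below, and a median log2 difference of 1.22 against -0.09 for all genes. At an unadjusted p under 0.05, 50 segments were higher where 4.92% of all genes were. The summed V segment TPM was higher in the same libraries, so these counts in part restate that sum. Igkv1-110, a kappa segment, was at 26.6, 27.8, 44.6 and 25.9 TPM at 8 weeks and at 165, 114, 223, 857 and 157 TPM at 20 weeks, without overlap (log2 difference 2.84, SE 0.64, adjusted p = 0.0449). Ighv4-1 was at 1.22, 0, 0 and 1.01 TPM at 8 weeks and at 2.54, 138, 116, 287 and 23.1 TPM at 20 weeks (log2 difference 5.18, SE 1.09, adjusted p = 0.0349). All 4 libraries of 8 weeks listed Ighv1-34 at 0 and all 5 of 20 weeks held it (adjusted p = 0.0167). Igkv5-43 (3.08) and Igkv4-68 (2.97) also rose. Single libraries moved the count of 5. None was called without CHOW replicate 5 at 20 weeks or CHOW replicate 2 or 4 at 8 weeks, 1 was called without CHOW replicate 3 or 4 at 20 weeks or CHOW replicate 1 at 8 weeks, and leaving out CHOW replicate 1 at 20 weeks gave 12.

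From 8 to 20 weeks on HFD 7 V segments rose and Igkv4-68 fell. Of all genes 6.12% were called higher and 2.65% lower, so the members' shares were below the background in both directions. At an unadjusted p under 0.05 there were 14 higher segments, also a smaller share than the 18.9% of all genes. Of the risers, 6 were among the 84 kappa segments tested and 1 among the 91 heavy chain segments tested. At an unadjusted p under 0.05 by limma, 7 kappa and 7 heavy chain segments were higher. The median log2 difference was 0.28 for kappa and 0.41 for heavy chain segments, so the split of the calls was not a wider pattern. Igkv4-55 ranged from 0 to 7.01 TPM at 8 weeks (median 3.93) and from 20.7 to 55.1 TPM at 20 weeks (median 44.7), without overlap (log2 difference 3.30, SE 0.78, adjusted p = 0.0115). Igkv3-4 ranged from 0 to 7.88 TPM and then from 9.92 to 54.3 TPM (2.70, SE 0.58, adjusted p = 0.0057), also without overlap. Igkv12-46 likewise did not overlap, at 2.36 to 6.77 and 10.6 to 112 TPM (2.56, SE 0.73, adjusted p = 0.0323). Igkv3-2 rose from 0 to 15.1 TPM at 8 weeks to 6.11 to 154 TPM at 20 weeks (2.95, SE 0.86, adjusted p = 0.0357), and Ighv1-80 rose by 2.73 (SE 0.72, adjusted p = 0.0215). Igkv6-25 (2.35) and Igkv6-14 (1.66) were the other risers. On CHOW over the same time, Igkv3-2, Igkv3-4 and Ighv1-80 had log2 differences of 3.54, 2.49 and 2.64 (limma, adjusted p = 0.108, 0.0971 and 0.156). Igkv4-55, Igkv12-46, Igkv6-25 and Igkv6-14 had 1.91, 1.16, 0.84 and 0.36 on CHOW. None of the 7 risers passed the diet by time interaction test, so their rises were not shown to be particular to HFD. The number called was 3 without HFD replicate 6 at 8 weeks, 4 without HFD replicate 3 at 8 or at 20 weeks, and 5 without HFD replicate 1 at 8 weeks or HFD replicate 2 at 20 weeks. It was 2 (Igkv12-46 and Igkv6-25) without HFD replicates 3, 4 and 5 at 20 weeks, the libraries rich in germ cell RNA, where the adjusted p was 0.0813 for Igkv4-55 and 0.0647 for Igkv3-4.

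**Figure D5:**
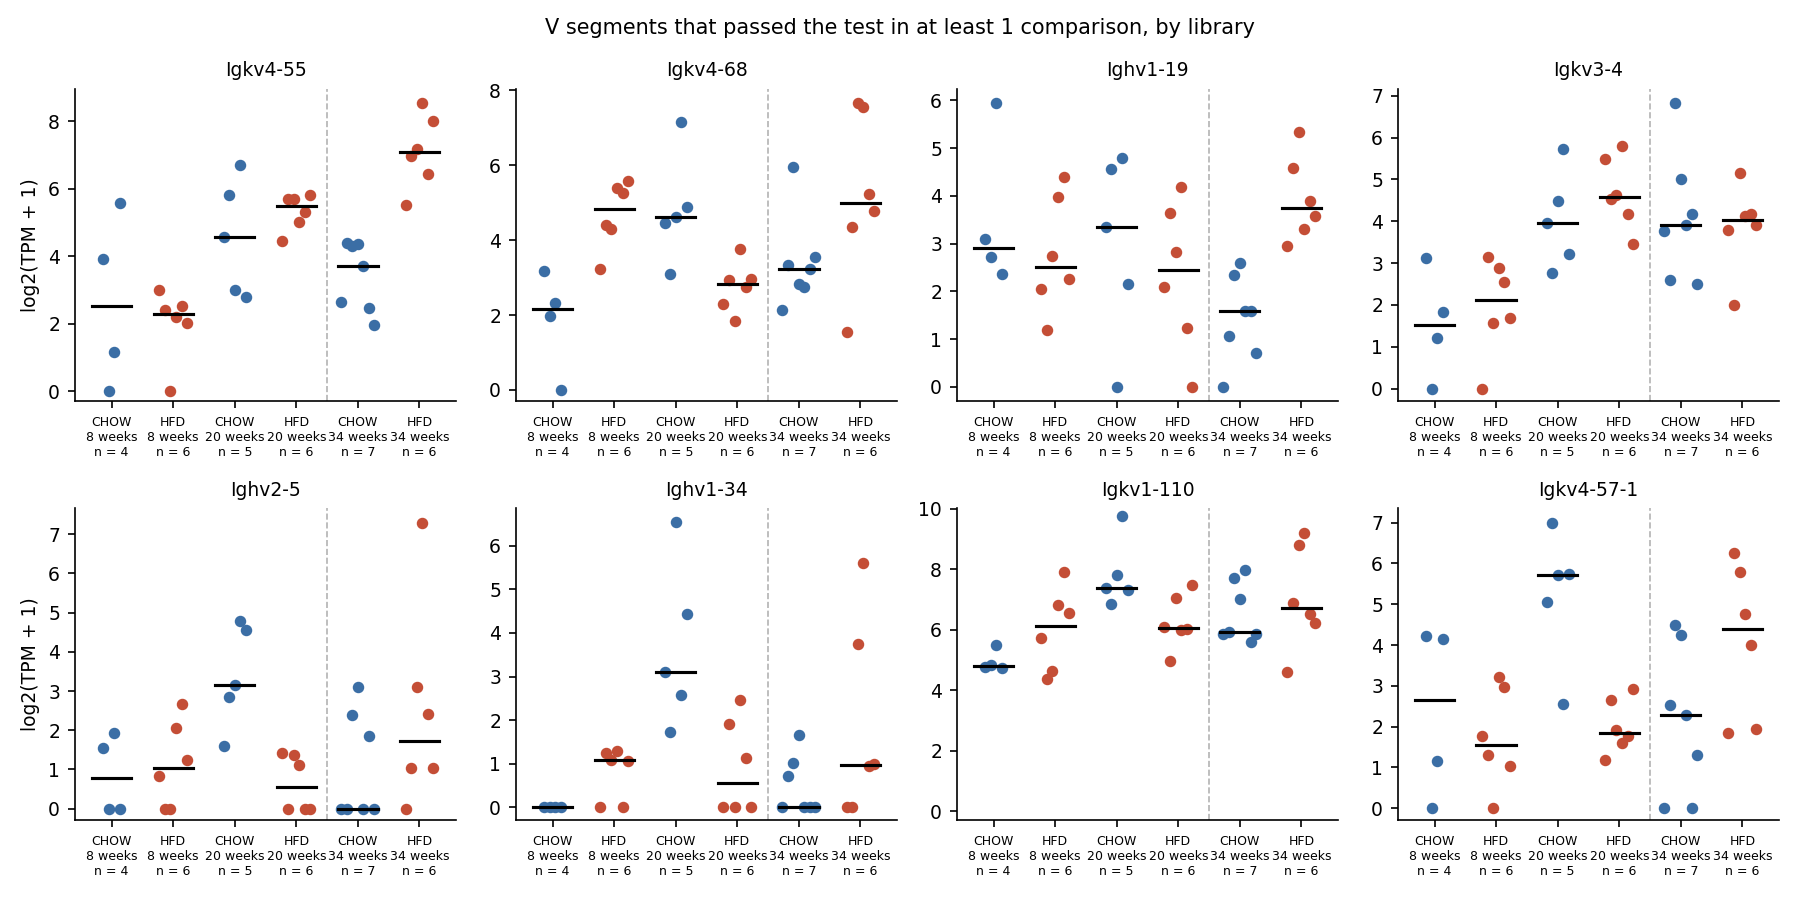
Level of 8 V segments in each library as log2(TPM + 1), with libraries as points and group medians as bars, for diet and weeks on diet, the dashed line separating the 2 tables. Igkv4-55 at 34 weeks and Ighv2-5 at 20 weeks show diet groups that do not overlap, and Igkv4-68 changes direction between the diets from 8 to 20 weeks.

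Igkv4-68 changed with time in opposite directions on CHOW and HFD. It was at 7.96, 2.96, 4.00 and 0 TPM on CHOW at 8 weeks and at 20.7, 7.60, 23.5, 141 and 28.5 TPM at 20 weeks. On HFD it went from 8.40 to 46.4 TPM (median 28.6) at 8 weeks to 2.57 to 12.5 TPM (median 6.13) at 20 weeks. The diet by time interaction was -4.91 on the log2 scale (SE 0.88, adjusted p = 0.0167), the only V segment of 177 to pass, where 0.137% of all genes were called lower. At an unadjusted p under 0.05, 26 segments had a negative interaction (3.40% of all genes did) and 1 a positive one. Without CHOW replicate 4 at 8 weeks the value was -4.29 (adjusted p = 0.0534) and no segment passed, and 2 passed without CHOW replicate 2 at 8 weeks or at 20 weeks. Igkv4-55, which shares most of the printed stretch with Igkv4-68, moved the opposite way on HFD.

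At 34 weeks 2 of 147 tested V segments were higher on HFD and none lower, where 0.243% of all genes were called higher. Igkv4-55 ranged from 2.85 to 19.9 TPM in the 7 CHOW libraries (median 12.2) and from 44.4 to 368 TPM in the 6 HFD libraries (median 135), with a gap between the groups. Its log2 difference was 3.70 (SE 0.52, adjusted p = 0.0171). Ighv1-19 ranged from 0 to 5.08 TPM on CHOW (median 2.00) and from 6.70 to 39.3 TPM on HFD (median 12.5), also without overlap (2.53, SE 0.45, adjusted p = 0.0449). At an unadjusted p under 0.05, 32 segments were higher and none lower, beside 9.69% of all genes higher, and the median log2 difference was 0.86 for the segments and 0.10 for all genes.

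Igkv4-55 was the V segment called higher both at 20 weeks against 8 weeks on HFD and at 34 weeks against CHOW, which are different comparisons. Between the diets at 20 weeks its log2 difference was 0.75 (SE 0.82, limma, adjusted p = 0.582). From 8 to 20 weeks on CHOW it was 1.91 (SE 0.91, adjusted p = 0.393), and the interaction was 1.39 (SE 1.20, adjusted p = 0.597). The call at 34 weeks was not held in every setting. Without the 3 CHOW libraries rich in adipocyte RNA its log2 difference was 3.18 (adjusted p = 0.122), and it was 3.46 (adjusted p = 0.0509) without CHOW replicate 7 alone. It was also past 0.05 without HFD replicate 2 (0.0692), HFD replicate 3 (0.0535) or HFD replicate 4 (0.0564). With a pseudocount of 0.1 TPM its adjusted p was 0.0601, with the replicate block 0.108, and no segment was called in either. Ighv1-19 lost the call without any single library other than CHOW replicate 4 and HFD replicate 1, at adjusted p-values of 0.0515 to 0.143. No segment was called with CHOW replicate 7 or any of HFD replicates 2, 3 and 4 left out. With any of CHOW replicates 1, 2, 3, 5 and 6 or HFD replicates 5 and 6 left out, 1 was called, and leaving out HFD replicate 1 gave 4. All 8 tested germ cell genes had an unadjusted p under 0.05 at 34 weeks with a median log2 difference of 3.29, none past the adjusted test, and their list summed to 0.390 to 65.3 TPM on CHOW and 27.4 to 5861 TPM on HFD. Without HFD replicates 1 and 2, where that sum was over 2000 TPM, Igkv4-55 was still called (4.13, adjusted p = 0.0176) and Ighv1-19 was not (2.61, adjusted p = 0.0658).

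The 2 lambda segments were a small part of the light chain V segments, and their share differed between libraries. Iglv1 was at 50.0, 51.5, 17.96 and 111 TPM in CHOW libraries at 8 weeks and at 50.4, 181, 596, 497 and 585 TPM at 20 weeks, and ranged from 46.3 to 301 TPM (median 92.8) in HFD libraries at 20 weeks. Neither the rise on CHOW (log2 difference 2.51, SE 0.66, adjusted p = 0.0858) nor the difference between diets at 20 weeks (-1.47, SE 0.59, adjusted p = 0.0983) passed the test. Iglv2 was at 66.3, 42.0, 36.4 and 57.3 TPM in CHOW libraries at 8 weeks and at 56.7, 37.3, 124, 268 and 111 TPM at 20 weeks. Lambda segments made up 1.98% to 13.2% of light chain V segment TPM over all libraries. CHOW replicate 4 at 8 weeks had the lowest V segment sum of its group (1971 TPM) and the highest lambda sum (168 TPM).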

How the data were processed

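RNA-seq was done on the SVF of 34 libraries (TruSeq stranded mRNA). Read quality was checked (FastQC, MultiQC), and Salmon was run on Trimmomatic output with the coding and lncRNA sets of gencode M10. The authors summed transcripts to genes and deposited TPM, with tool versions not given in the sources used here. Since V, J and constant segments are separate genes in the annotation, a rearranged antibody mRNA adds to several, and reads shared by near-identical segments are divided by the quantifier.

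Symbols were assigned through GENCODE M21 (31791 of 32098 identifiers matched, and all 217 V segments had the same version). Groups and replicate numbers came from sample titles. Genes that reached 1 TPM in at least 4 (8 and 20 weeks) or 6 (34 weeks) libraries were tested on log2(TPM + 1) with limma 3.58.1 (R 4.3.3), a model of group means per table, trended variance and Benjamini-Hochberg adjustment over all 16808 or 13982 genes, two-sided, threshold 0.05. The script was tested on simulated data. Coding sequences were cropped from the transcripts and compared with edlib 1.3.9.post1 and Biopython 1.88. The segments named were, in each comparison, up to 5 of the highest and 5 of the lowest log2 differences among those called, the 3 most abundant of each locus and 6 segments of B-1 antibodies, with others named as chosen after their values were seen. Members, lists and tests were chosen with earlier results of these data known. Alternatives were another pseudocount, filters, scalings, sample weights, a replicate block and leaving out libraries. The libraries carry replicate numbers, but their deviations were not correlated in every same-numbered pair (correlation over 0.1 in 3 of 9 pairs at 8 and 20 weeks and in 3 of 6 at 34 weeks). No batch or date is given in the labels.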

Additional observations from a re-analysis of the deposited data

Results flagged for a closer look

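Of 167 group measures tested, 16 had a library far from the others of its group, where chance flags about 1 in 20. That rate holds for normal, independent measures, and these share segments and libraries. A group at 0 in all libraries but 1 is flagged whatever the value in that library. CHOW replicate 4 at 8 weeks stood apart from its group in 4 of the 16 measures, which overlap because each draws on the same pair of segments. The share of Ighv11-2 and Igkv14-126 was 16.3% there against 30.7% to 32.8% in the others, Igkv14-126 was at 260.7 TPM against 544 to 610, Ighv11-2 at 59.9 TPM against 188 to 204, and the effective number of segments was 24.3 against 11.9 to 12.97. In the same group Igkv1-110 was at 44.6 TPM in replicate 3 against 25.9 to 27.8, and Igkv7-33 at 1.31 TPM in replicate 3 against 0.

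HFD replicate 2 at 8 weeks held Ighv1-11 at 9.90 TPM, above the other 5, and Ighv4-1 at 0 TPM, below 11.1 to 23.9. HFD replicate 3 at 8 weeks, the library rich in seminal vesicle RNA, held Igkv4-55 at 0 TPM against 3.06 to 7.01. At 20 weeks on HFD, Igkv4-91 was at 387.5 TPM in replicate 3 against 34.2 to 76.0, and Ighv1-11 at 2.45 TPM in replicate 6 against 0. At 34 weeks on CHOW, Igkv4-68 was at 60.9 TPM in replicate 3 against 3.38 to 10.8, and Igkv7-33 at 11.9 TPM in replicate 6 against at most 0.988. At 34 weeks on HFD, Igkv14-126 was at 85.8 TPM in replicate 1 against 293 to 543, Ighv12-3 at 0 TPM in replicate 6 against 13.9 to 66.8, and Ighv7-1 at 0 TPM in replicate 4 against 5.91 to 17.2.

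The change of Igkv4-68 from 8 to 20 weeks differed between the diets, with an interaction of -4.91 on the log2 scale (limma, adjusted p = 0.0167). Igkv4-68 was at 0 TPM in CHOW replicate 4 at 8 weeks, and without that library the adjusted p was 0.0534.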

How the results depend on the processing

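The numbers of V segments called depended on the processing. Over all alternatives run, 87 of 143 such counts stayed within 1.5 times the reported one and 56 moved. Of 551 fold changes of called segments, 389 kept their call, 162 kept their direction but lost the call, and none turned. Only segments already called were followed, in refits of the same data. A turn was therefore hardly possible, and its absence says little about the directions. At 8 weeks the count of 0 became 1 with sample quality weights and 1 in a fit of the 2 groups alone. At 20 weeks the count of 8 became 5 without the expression filter, 22 with quality weights, 13 with the replicate block, 2 without the libraries over 2000 TPM of germ cell genes and 5 without both libraries in which a pair of segments dominated. For CHOW over time the count of 5 became 1 without the filter, 9 with median-ratio scaling, 9 with quantile normalization, 34 with quality weights, 2 with the replicate block, 1 without both dominated libraries and 0 in a fit of the 2 groups alone. For HFD over time the count of 8 became 3 without the filter, 3 without the libraries rich in seminal vesicle or germ cell RNA, 2 without those over 2000 TPM of germ cell genes and 5 without both dominated libraries. The interaction count of 1 became 5 with quality weights. At 34 weeks the count of 2 became 0 with a pseudocount of 0.1 TPM, 1 without the filter, 1 with a filter at 5 TPM, 1 with quantile normalization, 5 with quality weights, 0 with the replicate block, 0 without the adipocyte-rich libraries and 1 without the libraries over 2000 TPM of germ cell genes. Leaving out each library in turn gave 0 to 0 calls at 8 weeks, 3 to 12 at 20 weeks, 0 to 12 for CHOW over time, 3 to 9 for HFD over time, 0 to 2 for the interaction and 0 to 4 at 34 weeks. Apart from filters and left-out libraries, which change what is tested, the cause was not tested. Ighv2-5 and Ighv1-34 (20 weeks) were called in every alternative in which they were tested, which were 23 and 22. Igkv4-57-1 (20 weeks), Igkv4-55 and Igkv3-4 (HFD over time) were called in all but that without the libraries over 2000 TPM of germ cell genes. The ratios of summed TPM all moved by less than the within-group SD of single libraries on the log2 scale. That measure is wide and does not show the ratios to be stable. With single libraries left out, the diet ratio at 20 weeks ran from 0.349 to 1.01. The HFD ratio of 20 over 8 weeks ran from 1.37 to 3.48. Same-numbered libraries had correlations of deviations of -0.10 to 0.21 at 8 and 20 weeks, where 2 of 9 resembled their own number best. At 34 weeks the correlations were -0.01 to 0.21, over 0.1 in 3 of 6 pairs, and 4 of 6 resembled their own number best, a hint of shared numbers from the data that the labels do not explain. The replicate block is given as an alternative. Another scaling shifted all genes: with quantile normalization the median log2 difference of all genes at 20 weeks went from 0.08 to -0.05 and the calls over all genes from 1566 higher and 839 lower to 1648 and 1854. For HFD over time those calls went from 1029 higher and 446 lower to 1125 and 1630. The 20-week ratio of summed TPM was 0.396 with medians in place of means. Leaving out both dominated libraries, or those over 2000 TPM of germ cell genes, was chosen after seeing the data.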
